A study of Mus musculus with 6 samples.

Results

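The genes examined here encode the proteins of the mitochondrial ribosome. They were taken from the count table as every gene symbol made of Mrpl or Mrps, a number and at most 1 further letter, which gave 77 genes of the 31169 in the table. Whole retina of male C57BL/6 mice was measured by sequencing of poly(A) RNA. The mice received an intracameral injection of saline or of microbeads 15 μm in diameter in both eyes at 1 month of age. The retina was taken 4 weeks later, at 2 months. Microbeads block the drainage of fluid from the front of the eye and so elevate intraocular pressure (IOP). Saline-injected eyes of separate mice are the control. There were 3 saline and 3 microbead libraries. No genotype beyond the strain is given for either group. Nothing in the sample records says that the replicates of a group came from separate animals, and both eyes of a mouse were injected. The p values therefore measure the spread between these libraries, which may in part be technical.

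The mitochondrial ribosome translates the messenger RNAs of the mitochondrial genome, which encode core subunits of the respiratory chain and of ATP synthase. Its ribosomal RNAs are transcribed in the mitochondrion, whereas its proteins are encoded in the nucleus, made in the cytosol and imported. The large subunit (Mrpl genes) holds the peptidyl transferase center and the exit tunnel, and the small subunit (Mrps genes) holds the messenger RNA and its decoding site. Some proteins have a counterpart in the bacterial ribosome, and others exist only in mitochondria. Photoreceptors, which make up most of the cells of the mouse retina, have a high demand for ATP and are rich in mitochondria.

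Several members carry names that do not match their place. Mrps18a and Mrps30 were counted with the large subunit, where their proteins reside. Mrps36 was kept apart, because its protein is a component of the α-ketoglutarate dehydrogenase complex. Mrps23, a further protein of the small subunit, was not analysed here.

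Total counts per library were 36085737 to 46481382 in saline and 13574949 to 19834366 in microbead retina. Cone photoreceptor markers, 6 in number, summed to 981 to 1192 CPM (counts per 1000000 of the scaled library size) in saline and 1076 to 1250 CPM in microbead libraries, and 1 of them was called higher (an adjusted p value under 0.05 from edgeR) and none was at 0 in all libraries. The 6 markers of retinal ganglion cells (RGCs) summed to 271, 744 and 957 CPM in saline replicates 1 to 3 and 668 to 924 CPM in microbead libraries, so that saline replicate 1 stood apart, and the members are also given without it below. The saline libraries carry 1 series of library names and the microbead libraries another, so a difference between these series and the effect of microbeads cannot be told apart. Genes of the mitochondrial genome took 3.19% to 3.57% of counts in saline and 8.90% to 10.6% in microbead libraries, with no overlap. A fit with library sizes that leave these genes out is given below. Any other part of this difference in the results was not tested. In whole tissue, a loss of cells that express a gene and less of its RNA per cell cannot be told apart.

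The proximal promoters of 4 members are shown, chosen as the called members with the largest changes among those matched to a promoter window. Each window runs from 250 bases before to 50 bases after the transcription start, 5′ to 3′ on the strand of the gene, from RefSeq on GRCm38.p6. Mrpl41 lies at chr2:24975049-24975348 (minus strand), Mrpl42 at chr10:95501900-95502199 (minus strand), Mrpl22 at chr11:58171414-58171713 (plus strand) and Mrpl24 at chr3:87919294-87919593 (plus strand). Capitals mark a match to the core of the NRF1 site (GCGCATGCG), of the ETS site that GABP binds (CCGGAAG) or of the YY1 site (AAGATGGC), searched on both strands.
Mrpl41: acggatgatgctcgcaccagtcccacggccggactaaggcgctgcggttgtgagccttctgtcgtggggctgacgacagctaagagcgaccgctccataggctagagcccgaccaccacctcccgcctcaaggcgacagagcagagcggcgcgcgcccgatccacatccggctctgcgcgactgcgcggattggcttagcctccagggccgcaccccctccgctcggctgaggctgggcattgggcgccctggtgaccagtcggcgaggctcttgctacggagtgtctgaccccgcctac
Mrpl42: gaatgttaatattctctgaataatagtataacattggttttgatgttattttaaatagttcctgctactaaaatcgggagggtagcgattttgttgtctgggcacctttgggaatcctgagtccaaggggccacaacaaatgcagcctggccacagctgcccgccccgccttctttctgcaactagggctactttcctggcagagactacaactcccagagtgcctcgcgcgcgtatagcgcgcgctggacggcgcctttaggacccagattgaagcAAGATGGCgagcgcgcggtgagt
Mrpl22: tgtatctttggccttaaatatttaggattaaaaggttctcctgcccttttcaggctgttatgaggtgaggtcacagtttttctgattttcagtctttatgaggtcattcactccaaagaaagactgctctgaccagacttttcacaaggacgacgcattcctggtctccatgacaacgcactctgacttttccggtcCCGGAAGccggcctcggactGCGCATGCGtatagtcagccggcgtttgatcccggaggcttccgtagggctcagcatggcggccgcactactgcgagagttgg
Mrpl24: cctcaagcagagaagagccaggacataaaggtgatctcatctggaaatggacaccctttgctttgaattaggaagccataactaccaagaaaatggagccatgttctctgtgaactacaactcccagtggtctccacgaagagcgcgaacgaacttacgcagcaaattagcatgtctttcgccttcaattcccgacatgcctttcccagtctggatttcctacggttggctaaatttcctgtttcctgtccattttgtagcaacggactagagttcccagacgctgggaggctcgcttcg

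Of these windows, Mrpl22 held the NRF1 core with its first base 33 bases before the start and the ETS core 53 bases before it. Mrpl42 held the YY1 core at base 28 after the start. No match was found in the windows of Mrpl41 and Mrpl24. Across the family, 68 members matched a window of the RefSeq promoter table used, with 74 windows between them. The NRF1 core was in 9.46% of these windows and in 1.75% of all 32851 windows of the same length. The ETS core was in 33.8% against 8.86%, and the YY1 core in 16.2% against 2.75%. At least 1 of these cores was present in 37 of the 74 windows of members and in 12.5% of all windows. The cores share no position in the windows shown, and a match is a description of letters and not of binding. The median log2 fold change after microbead injection was 0.37 for the 7 members with the NRF1 core, 2 of which were called higher (Mrpl22 and Mrpl39), and 0.12 for the matched members without it. It was 0.10 with and 0.18 without the ETS core, and 0.13 with and 0.14 without the YY1 core. These medians rest on few members and carry no test. Mrpl13, Mrpl15, Mrpl19, Mrpl38, Mrpl4, Mrpl54, Mrps28, Mrps34 and Mrps35 were not matched to a window, and their promoters were not analysed here.

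To compare levels between members, CPM were divided by the length of each gene's exons in kilobases (RPKM). In saline retina the 76 members that passed the filter on low counts ranged from 1.86 to 49.0 RPKM (26.4-fold) with a median of 9.95 RPKM. In microbead retina they ranged from 1.85 to 76.1 RPKM (41.1-fold) with a median of 11.9 RPKM. These spans include Mrps36, and their lower end is Mrpl33, whose level depends on the length used, as given below. The median over the 6 libraries was 3.98 RPKM for those of the 17707 tested genes that had a known exon length.

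The highest mean levels over the 6 libraries were those of Mrpl41 (54.1 RPKM), Mrpl49 (53.5), Mrpl34 (51.0), Mrps21 (45.0) and Mrpl54 (40.7). All of these except Mrps21 encode proteins of the large subunit, and Mrpl34 and Mrps21 have bacterial counterparts whereas Mrpl41, Mrpl49 and Mrpl54 do not. The order of the first 3 rests on differences smaller than the spread between libraries. Among the tested members the lowest were Mrpl33 (1.86 RPKM) and Mrps35 (2.61 RPKM). Per length of the principal transcript alone, Mrps21 ranked 1, Mrpl42 rose from rank 36 to rank 2 and Mrpl33 from rank 76 to rank 19, because their genes hold long exons outside that transcript. The ranks of Mrpl42 and Mrpl33 therefore depend on the length used.

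**Figure D1:**
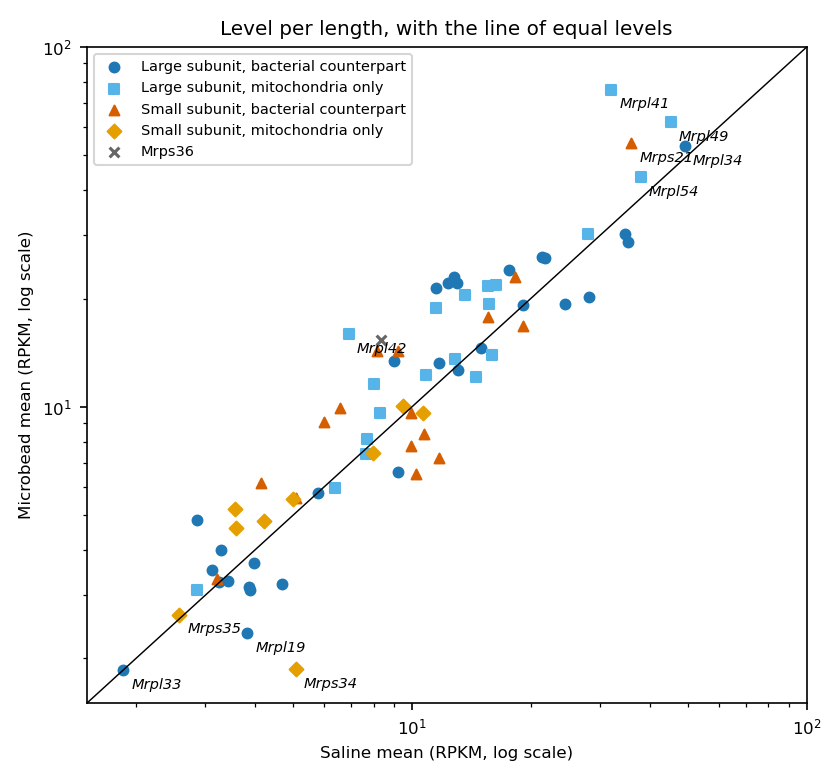
Mean RPKM of each of the 76 tested members in saline (x axis) and microbead retina (y axis), both on log scales, with 3 libraries per group; the diagonal marks equal levels and symbols mark the structural groups. Mrpl41 and Mrpl42 lie furthest above the diagonal and Mrps34 furthest below it.

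Mrpl53, a protein of the large subunit that exists only in mitochondria, was the only member to fail the filter. It had 0 counts in each saline library, which allows up to 0.0621 to 0.0855 CPM, and 1, 0 and 5 counts in the microbead libraries. Its gene at chr6:83109040-83109939 shares 88.0% of its exon bases with Gm42688 on the same strand. Reads that fall in both genes may not be assigned to either, so the counts do not show that Mrpl53 was not expressed.

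A shift shared by most members was clearest in microbead replicate 1, where 70 of the 76 were above their own mean. In saline replicates 1 to 3 this held for 35, 15 and 38 members, and in microbead replicates 2 and 3 for 22 and 36. Taken against its own mean over the 6 libraries, the median member deviated by -0.01, -0.18 and 0.00 on the log2 scale in saline replicates 1 to 3 and by 0.37, -0.13 and -0.01 in microbead replicates 1 to 3. Over all tested genes the same medians stayed within 0.05 of 0. The scaling of library sizes is meant to keep the typical gene level between libraries, so these medians are near 0 largely by design. Microbead replicate 1 thus stood apart from the other 5 libraries in the level of the whole family. It was the highest of the 6 libraries for 52 of the 76 members (68.4%), against 20.8% of all tested genes. Within its group it was the highest for 66 members, against 37.6% of all tested genes. Microbead replicate 2 was the highest of its group for 1 member and saline replicate 2 for 1 member. Over all tested genes these shares were 32.9% and 18.3%. The lowest library was microbead replicate 2 for 28 members (36.8%) and saline replicate 2 for 24 (31.6%). Over all tested genes these were the lowest for 15.2% and 9.08%. The cytosolic ribosomal proteins, which serve a separate ribosome, gave medians of 0.09, -0.04 and 0.31 in saline and 0.32, -0.40 and -0.32 in microbead libraries. In microbead replicate 1 both families were therefore above their means, whereas in saline replicate 3 only the cytosolic family was clearly so.

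**Figure D2:**
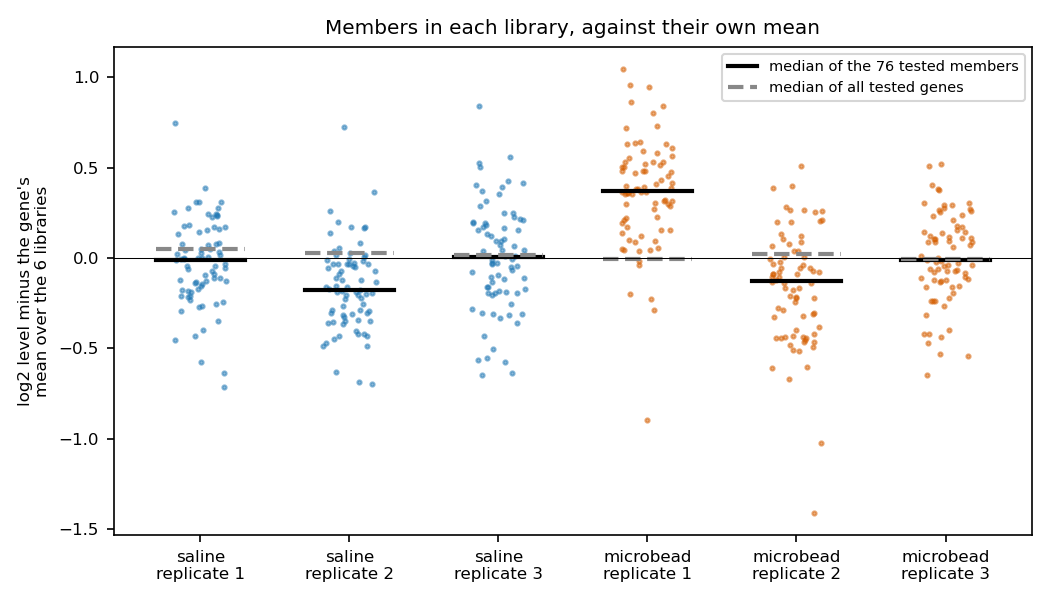
Log2 level of each tested member minus its own mean over the 6 libraries (points, 1 per member), by library, with the median of the 76 members (solid bar) and of all tested genes (dashed bar). The members' median is 0.37 in microbead replicate 1 and between -0.18 and 0.00 in the other libraries.

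Summed over the family, the members reached 2064, 1867 and 2095 CPM in saline and 2826, 1997 and 2202 CPM in microbead libraries. Microbead replicate 2 lay within the saline range, so the groups overlapped. The means were 2009 ± 124 CPM and 2342 ± 432 CPM (SD, n = 3), a log2 ratio of 0.22, which fell to 0.06 without microbead replicate 1. The large subunit took 71.9% ± 0.402 of the summed CPM in saline and 72.2% ± 0.498 in microbead libraries (SD, n = 3), and between 71.5% and 72.7% in each of the 6 libraries.

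To determine which members differed between saline and microbead retina, counts were tested gene by gene with edgeR. Of the 76 tested members, 9 (11.8%) were higher after microbead injection at an adjusted p value under 0.05, against 6.46% of all tested genes, and 2 (2.63%) were lower, against 6.31%. The other 65 did not pass. The 9 were Mrpl41, Mrpl42, Mrpl22, Mrpl4, Mrpl24, Mrps15, Mrpl39, Mrps17 and Mrps5, and the 2 were Mrpl19 and Mrps34. Without regard to the test, all 3 microbead libraries were above all 3 saline libraries for 24 members (31.6%, against 18.8% of all tested genes) and below them for 7 (9.21%, against 18.9%). The median member had a log2 fold change of 0.13, with quartiles at -0.10 and 0.49, against -0.03 for all tested genes, and 49 members were above 0 and 27 below.

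These totals depended on single libraries. Without saline replicate 1, 8 members were higher and 1 lower, and the median was 0.15. Without microbead replicate 1 the median was -0.02, 37 members were above 0 and 39 below, and 2 were called, Mrpl41 and Mrpl42. Over the whole table, 2621 genes were called without saline replicate 1 and 748 without microbead replicate 1. No member was called by edgeR without saline replicate 2 or without microbead replicate 3, fits in which 293 and 46 genes of the whole table were called, against 2261 with all libraries. At an unadjusted p value under 0.05, 15 members were higher and 4 lower in the first of these fits and 19 and 3 in the second, against 20 and 5 with all libraries. With all libraries, 25 of the 76 members were under this limit, and 5565 of the 17707 tested genes. This background applies also to the unadjusted counts of the groups below. Mrpl41 and Mrpl42 were each called in 4 of the 6 fits that left out a library, Mrpl4 in 3, Mrps15 in 2, Mrpl22, Mrpl24, Mrpl39, Mrps5 and Mrps34 in 1, and Mrps17 and Mrpl19 in 0. Every one of these 11 members kept its direction in all 6 fits.

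**Figure D3:**
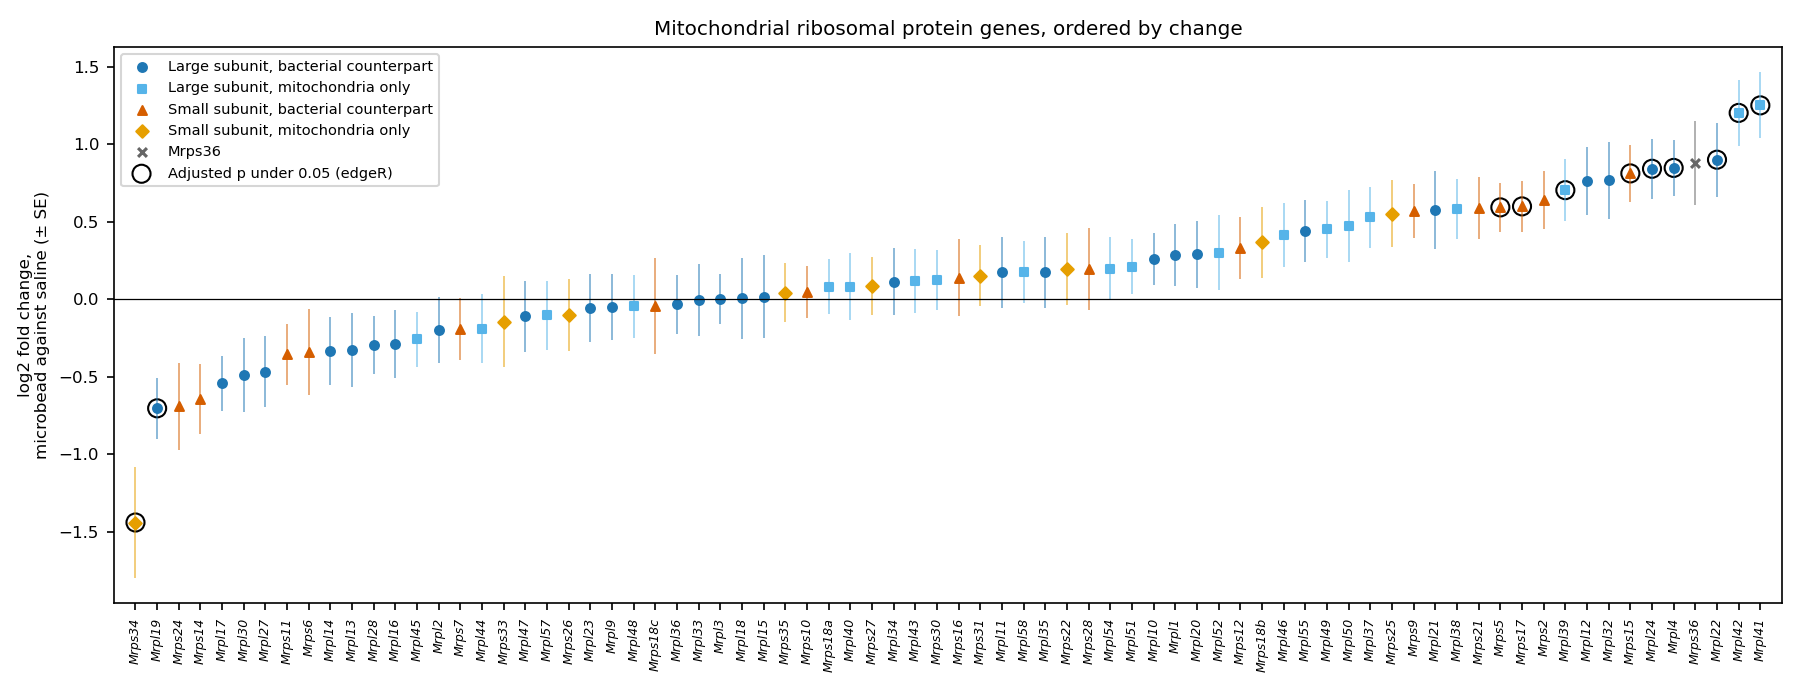
Log2 fold change of the 76 tested members, microbead against saline, ordered by size, with SE from edgeR as bars; symbols mark the structural groups and open circles the members with an adjusted p value under 0.05. The values run from -1.44 (Mrps34) to 1.25 (Mrpl41), and 9 circled members lie above 0 and 2 below.

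Among proteins of the large subunit that exist only in mitochondria, 3 of 20 tested members (15.0%) were higher and 0 lower. Over all tested genes these shares were 6.46% and 6.31%. The median log2 fold change was 0.20, and 16 members were above 0 and 4 below. For 8 of the 20 (40.0%, against 18.8% of all tested genes) the groups did not overlap, in each case with the microbead libraries higher. At an unadjusted p value under 0.05, edgeR gave 6 higher and 0 lower, and DESeq2 and limma-voom also called 0 lower. The 3 were Mrpl41, Mrpl42 and Mrpl39.

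Mrpl41, whose protein has also been described as a partner of the apoptosis regulator Bcl-2, lies at chr2:24974117-24975098 (GRCm38). It was at 29.0, 26.9 and 29.4 CPM in saline and 89.4, 57.0 and 56.4 CPM in microbead libraries. The lowest microbead library was thus well above the highest saline library, and microbead replicate 1 stood above the others. The log2 fold change was 1.25 (SE 0.21, adjusted p = 0.0143 from edgeR), or 2.38-fold, the largest rise of the family, and with each library left out it ran from 0.99 to 1.38.

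Mrpl42 (chr10:95480805-95501940) was at 23.2, 23.5 and 29.6 CPM in saline and 74.0, 54.4 and 47.2 CPM in microbead libraries. Again the groups were well separated, with microbead replicate 1 the highest. It was 2.30-fold higher (log2 fold change 1.20, SE 0.21, adjusted p = 0.0149 from edgeR).

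Mrpl39, which is related in fold to threonyl-tRNA synthetases and lies at chr16:84717576-84735742, was at 26.9, 26.6 and 34.2 CPM in saline and 57.3, 39.7 and 45.6 CPM in microbead libraries. Its groups were separated by a narrower gap, between saline replicate 3 and microbead replicate 2. With a log2 fold change of 0.70 (SE 0.20, adjusted p = 0.0478 from edgeR), it was close to the threshold. In the same group Mrpl49, the member with the second highest level per length, was at 91.3, 76.7 and 86.5 CPM in saline and 141, 104 and 103 CPM in microbead libraries, and its log2 fold change of 0.45 (SE 0.18, adjusted p = 0.126 from edgeR) did not pass although the groups did not overlap. Mrpl54 differed by 0.20 (SE 0.20, adjusted p = 0.547 from edgeR).

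Of the 30 tested members of the large subunit with a bacterial counterpart, 3 were higher and 1 was lower. For comparison, 6.46% of all tested genes were higher and 6.31% lower. The median was 0.00, with 16 members above 0 and 14 below. The groups did not overlap for 7 of the 30 with microbead higher and for 3 with microbead lower. Among all tested genes these shares were 18.8% and 18.9%. The 3 that rose were Mrpl22, Mrpl4 and Mrpl24, which encode the mitochondrial forms of the ribosomal proteins uL22, uL4 and uL24.

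Mrpl22 (chr11:58171661-58179565) was at 12.3, 11.2 and 10.2 CPM in saline and 27.7, 18.2 and 17.1 CPM in microbead libraries. All microbead libraries were above all saline libraries, and microbead replicate 1 was far above the others. The log2 fold change was 0.90 (SE 0.24, adjusted p = 0.0393 from edgeR). Of its 100-base stretches, 12.6% also occur in Gm6997, so some of its reads are uncertain.

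Mrpl4 (chr9:21002738-21008839) was at 38.5, 33.3 and 28.4 CPM in saline and 63.7, 53.0 and 63.3 CPM in microbead libraries. In this gene microbead replicates 1 and 3 were at like levels. It rose by a log2 fold change of 0.85 (SE 0.18, adjusted p = 0.0224 from edgeR).

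Mrpl24 (chr3:87919506-87923672) was at 33.6, 23.8 and 26.0 CPM in saline and 56.4, 48.4 and 44.7 CPM in microbead libraries, again without overlap. Its rise was 0.84 on the log2 scale (SE 0.19, adjusted p = 0.0265 from edgeR). Of its exon bases 26.3% lie opposite exons of Rrnad1, which was also higher (log2 fold change 1.16, SE 0.26, adjusted p = 0.0252 from edgeR). The libraries were made with a stranded kit, but whether strand was used in counting is not given in the sources used here, and reads of such partners may have been mixed.

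Mrpl19, which encodes the mitochondrial form of bL19, a protein at the contact with the small subunit, was the member of the large subunit that fell. It lies at chr6:81957851-81965958 and was at 21.4, 21.0 and 20.3 CPM in saline and 13.9, 10.7 and 13.8 CPM in microbead libraries. The saline libraries were close to each other and all above the microbead libraries. It was 1.63-fold lower (log2 fold change -0.70, SE 0.20, adjusted p = 0.0457 from edgeR). Of its exon bases 36.0% lie opposite Gcfc2, whose log2 fold change was 0.16 (adjusted p = 0.771 from edgeR). Mrpl34 and Mrpl33, the highest and lowest of these 30 members per length, differed by 0.11 (SE 0.22, adjusted p = 0.758 from edgeR) and -0.01 (SE 0.23, adjusted p = 0.989 from edgeR), and the direction of both changed with the scaling or with the libraries used.

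In the small subunit, 3 of 16 members with a bacterial counterpart (18.75%) were higher and 0 lower. The shares over all tested genes were 6.46% and 6.31%. Their median was 0.17, with 10 members above 0 and 6 below. Unadjusted, edgeR gave 6 higher and 2 lower, and neither DESeq2 nor limma-voom called any of them lower. The 3 were Mrps15, Mrps17 and Mrps5.

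Mrps15, the mitochondrial form of a protein that binds the small ribosomal RNA early in assembly, lies at chr4:126046925-126055532. It was at 14.3, 13.6 and 13.5 CPM in saline and 27.0, 21.9 and 23.7 CPM in microbead libraries. The saline libraries hardly differed, and every microbead library was higher. Its log2 fold change was 0.81 (SE 0.18, adjusted p = 0.0253 from edgeR).

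Mrps17 (chr5:129715497-129722556), whose protein also contacts the small ribosomal RNA, was at 39.6, 38.5 and 38.3 CPM in saline and 66.4, 54.8 and 55.03 CPM in microbead libraries, with a log2 fold change of 0.60 (SE 0.16, adjusted p = 0.0424 from edgeR). Mrps5 (chr2:127587222-127606829), the form of uS5 near the entry of the messenger RNA, was at 46.7, 41.2 and 42.1 CPM in saline and 68.2, 63.9 and 63.9 CPM in microbead libraries, with a log2 fold change of 0.59 (SE 0.16, adjusted p = 0.0390 from edgeR). In both genes the groups were separate, and the microbead libraries of Mrps5 were close to each other.

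Others of this group did not pass the test. Mrps21 was at 27.0, 23.9 and 28.9 CPM in saline and 50.4, 35.1 and 34.3 CPM in microbead libraries (log2 fold change 0.59, SE 0.20, adjusted p = 0.0808 from edgeR). Mrps24, the form of uS3, was at 16.3, 15.8 and 19.4 CPM in saline and 13.6, 6.42 and 11.8 CPM in microbead libraries (-0.69, SE 0.28, adjusted p = 0.129 from edgeR). In neither gene did the groups overlap, but the microbead libraries were spread widely. Mrps24 shares 15.4% of its exon bases with Urgcp on the same strand, which was not analysed here, so some of its reads are uncertain.

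Among the 9 members of the small subunit that exist only in mitochondria, 0 were higher and 1 (11.1%) was lower. The shares over all tested genes were 6.46% and 6.31%, and the median of the 9 members was 0.09. Unadjusted, edgeR gave 1 higher and 1 lower, and DESeq2 and limma-voom called 0 higher. The 1 was Mrps34, a protein needed for a stable small subunit. It was at 10.3, 10.2 and 11.0 CPM in saline and 3.24, 2.24 and 6.10 CPM in microbead libraries. The saline libraries were nearly equal and the microbead libraries differed among themselves, all below saline. The log2 fold change was -1.44 (SE 0.36, adjusted p = 0.0331 from edgeR), or 2.71-fold lower, the largest change of the family in either direction, with a range of -1.94 to -1.15 when each library was left out. Its gene at chr17:24895116-24897502 is crowded: 37.0% of its exon bases are shared with Nme3 on the same strand, which was not analysed here, and 63.4% lie opposite Mapk8ip3 (log2 fold change -0.41, adjusted p = 0.298 from edgeR). Reads from these genes may therefore bear on its count.

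Mrps25 was at 25.4, 19.9 and 24.8 CPM in saline and 43.5, 32.1 and 27.1 CPM in microbead libraries (0.55, SE 0.22, adjusted p = 0.117 from edgeR). Its groups did not overlap, and 69.8% of its exon bases lie opposite Nr2c2, which had a log2 fold change of -1.11 (adjusted p = 0.0767 from edgeR). Mrps35 differed by 0.04 (SE 0.19, adjusted p = 0.908 from edgeR), a value whose sign changed without the filter and without microbead replicate 1. Mrps36, the dehydrogenase component, was at 9.07, 11.1 and 11.9 CPM in saline and 27.3, 14.5 and 16.9 CPM in microbead libraries. It was higher in all microbead libraries and did not pass the test (0.88, SE 0.27, adjusted p = 0.0602 from edgeR). Mrps36 shares 8.2% of its 100-base stretches with the pseudogenes Mrps36-ps1 and Mrps36-ps2.

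**Figure D4:**
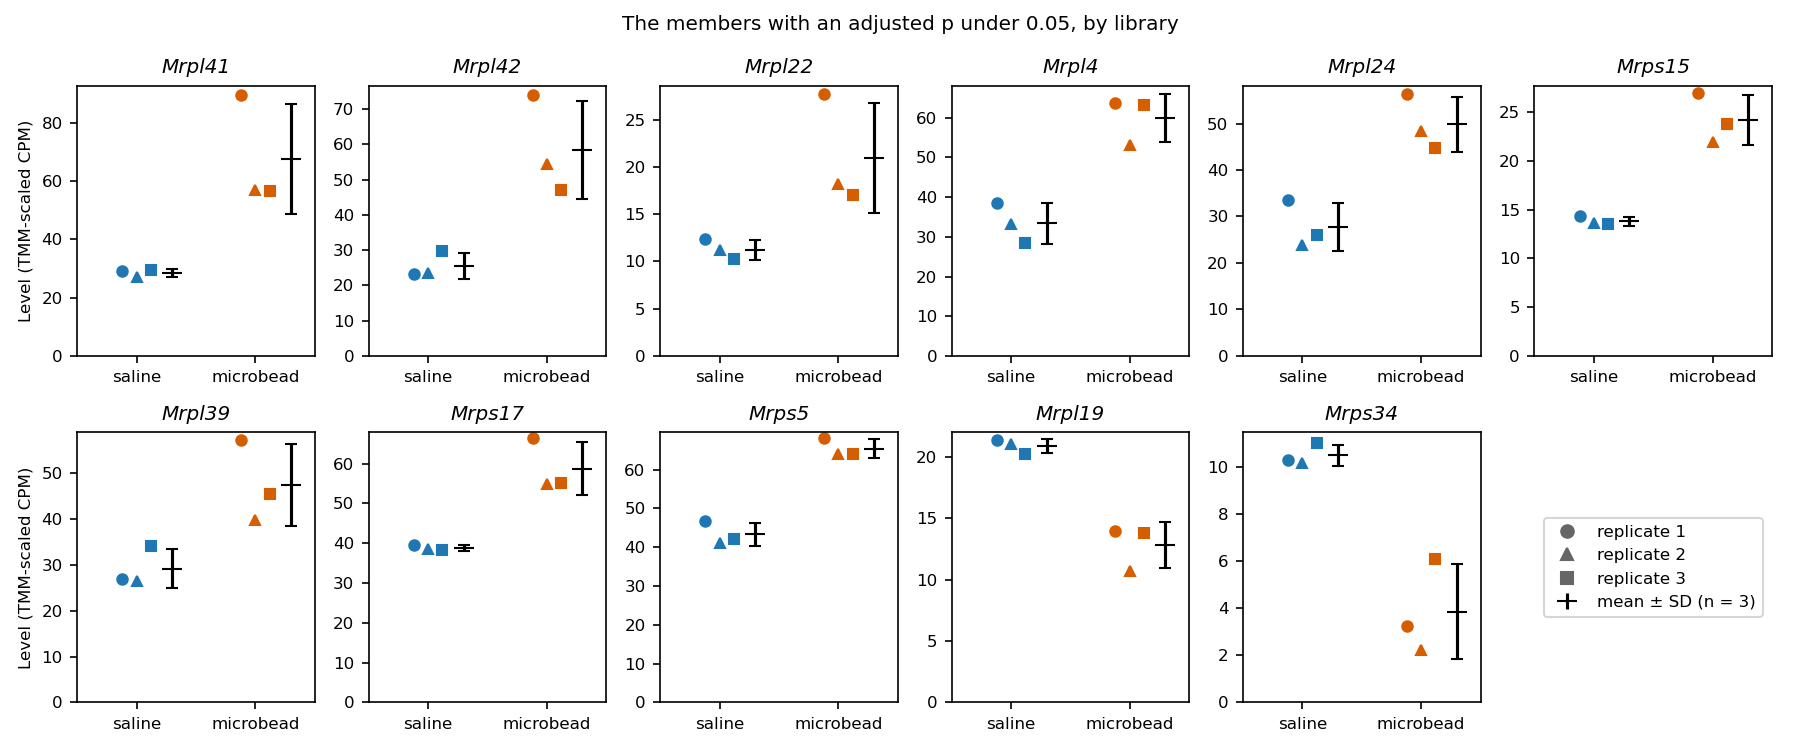
Level (TMM-scaled CPM, linear axes from 0) of the 11 members with an adjusted p value under 0.05 in each library, with the mean ± SD of the 3 libraries per group. The groups do not overlap in any panel, and microbead replicate 1 is the highest microbead library for the 9 members that were higher.

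The large subunit as a whole had 6 higher and 1 lower of 50 tested members, with a median log2 fold change of 0.12. The small subunit had 3 higher and 1 lower of 25, with a median of 0.14. For comparison, 6.46% of all tested genes were higher and 6.31% lower. Across the 76 members the log2 fold change had a rank correlation of -0.10 with exon length, 0.03 with GC content and 0.30 with mean level. These are descriptions across genes measured in the same libraries.

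The ribosomal RNAs of the same particle are mt-Rnr1 in the small and mt-Rnr2 in the large subunit. They were added after the data had been seen, and poly(A)-enriched libraries hold them only in part. mt-Rnr2 was at 1796, 2258 and 3483 CPM in saline and 1638, 1133 and 1121 CPM in microbead libraries, a log2 fold change of -0.95 (SE 0.27, adjusted p = 0.0495 from edgeR). Its groups lay close to each other without overlap, and it was called in 1 of the 6 fits that left out a library, that without saline replicate 1. mt-Rnr1 was at 445, 444 and 564 CPM in saline and 795, 445 and 452 CPM in microbead libraries (0.22, SE 0.25, adjusted p = 0.588 from edgeR), with overlap of the groups and microbead replicate 1 again the highest.

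Subunits of the same ribosome that carry other names gave 0 higher and 1 lower of 5 (1 and 1 at an unadjusted p value under 0.05, and 1 higher with DESeq2 and 0 with limma-voom). The 1 lower is 20.0% of this short list, against 6.31% of all tested genes. The 1 was Dap3, a GTP-binding protein of the small subunit, at 59.2, 56.8 and 66.1 CPM in saline and 41.6, 35.9 and 38.9 CPM in microbead libraries. All microbead libraries were lower (log2 fold change -0.65, SE 0.16, adjusted p = 0.0340 from edgeR), though the call held in only 1 of the 6 fits that left out a library, that without saline replicate 1.

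Of 24 tested genes for assembly of the mitochondrial ribosome and modification of its RNA, 3 (12.5%) were higher and 0 lower. The shares over all tested genes were 6.46% and 6.31%, and the median of the 24 genes was 0.18. Unadjusted, edgeR gave 6 and 1, and DESeq2 and limma-voom called 0 lower. Mterf3, which acts in assembly of the large subunit, was at 20.0, 18.5 and 12.3 CPM in saline and 40.8, 36.7 and 27.4 CPM in microbead libraries (log2 fold change 1.05, SE 0.24, adjusted p = 0.0261 from edgeR). Mterf4, which brings the methyltransferase Nsun4 to the large subunit, had a log2 fold change of 0.71 (SE 0.20, adjusted p = 0.0457 from edgeR). Rpusd3, a pseudouridine synthase, had 1.12 (SE 0.30, adjusted p = 0.0417 from edgeR). In all of these genes the groups did not overlap, and the calls held in 2, 1 and 1 of the 6 fits that left out a library, in no case without saline replicate 2 or any one of the microbead replicates.

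Of 15 translation and messenger RNA factors, 1 (6.67%) was higher and 0 lower, against 6.46% and 6.31% of all tested genes. The median was 0.18. Unadjusted, edgeR gave 4 and 0, and DESeq2 and limma-voom called 0 lower. The 1 was Slirp, which binds and stabilizes mitochondrial messenger RNAs, at 17.3, 12.9 and 15.2 CPM in saline and 33.8, 24.2 and 21.6 CPM in microbead libraries (0.81, SE 0.23, adjusted p = 0.0459 from edgeR). Microbead replicate 1 was the highest library, and the call held in 1 of the 6 fits that left out a library, that without saline replicate 1.

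Of 17 mitochondrial aminoacyl-tRNA synthetases, 0 were higher and 1 (5.88%) lower, against 6.46% and 6.31% of all tested genes. The median was -0.10. Unadjusted, edgeR gave 2 and 3, and DESeq2 and limma-voom called 0 higher. The 1 was Lars2, which charges the mitochondrial leucine tRNAs, at 94.5, 86.1 and 145 CPM in saline and 24.9, 20.3 and 30.1 CPM in microbead libraries. The gap between the groups was wide (log2 fold change -2.11, SE 0.25, adjusted p = 0.00514 from edgeR, or 4.32-fold lower), and the call held in all 6 fits that left out a library. It was a larger change than that of any of the 76 members. Sequence and exons shared with other genes were searched for the members only, so those of Lars2 were not checked.

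Of 10 regulators of nuclear genes for mitochondria, 0 were higher and 1 lower, against 6.46% and 6.31% of all tested genes. The median was 0.23. Unadjusted, edgeR gave 2 and 2, and 1 was called higher with DESeq2 and 0 with limma-voom. The 1 was the zinc-finger factor Yy1, at 68.8, 59.8 and 61.1 CPM in saline and 36.5, 37.9 and 36.1 CPM in microbead libraries. The libraries of each group were close to each other and the groups did not overlap (log2 fold change -0.78, SE 0.16, adjusted p = 0.0188 from edgeR), but the call was lost without saline replicate 2, microbead replicate 2 or microbead replicate 3. Nrf1 differed by -0.02 (SE 0.16, adjusted p = 0.943 from edgeR) and Gabpa, the DNA-binding subunit of GABP, by 0.21 (SE 0.18, adjusted p = 0.471 from edgeR).

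The proteins of the cytosolic ribosome gave 2 higher and 8 lower of 80 tested genes, with a median log2 fold change of -0.21, 29 above 0 and 51 below. Over all tested genes 6.46% were higher and 6.31% lower. The groups did not overlap for 7 of the 80 (8.75%, against 18.8% of all tested genes) with microbead higher. The same held for 22 (27.5%, against 18.9%) with microbead lower. Of the 76 members of the mitochondrial ribosome, 24 (31.6%) and 7 (9.21%) did so, and the difference between the families was not tested.

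Markers of other cells moved with the groups in part. The 6 endothelial markers summed to 209 to 286 CPM in saline and 114 to 158 CPM in microbead libraries, and 4 of the 6 were lower. Over all tested genes 6.31% were lower. The 6 oligodendrocyte markers of the optic nerve summed to 66.2 to 89.0 CPM and 49.1 to 52.3 CPM, with 2 lower, and the 6 Müller glia markers to 5019 to 8609 CPM and 4328 to 5264 CPM, with 2 lower. The 7 lens markers summed to 1.60 to 365 CPM in saline, with the highest value in saline replicate 3, and to 0.866 to 1.82 CPM in microbead libraries. The 8 markers of the pigment epithelium summed to 8.30 to 164 CPM and 78.1 to 92.7 CPM. No defining marker of these lists was at 0 in all libraries, and their part in the members' differences was not tested.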

How the data were processed

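Poly(A) RNA of retina was sequenced from 3 saline-injected and 3 microbead-injected eyes, grouped by the treatment in the sample records. The authors aligned reads with STAR 2.5.3a to GRCm38.p5 with GENCODE vM12 and counted them on genes with featureCounts 1.15.2. The deposited values used here are raw counts per gene, without normalization. The same table holds the authors' own DESeq2 1.14 comparison, which was not used.

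Low counts were removed with filterByExpr (minimum count 10, minimum total 15). After TMM scaling, saline and microbead were contrasted by edgeR 4.0.16 (R 4.3.3) in a two-sided quasi-likelihood test, and p values were adjusted by Benjamini-Hochberg across the 17707 genes tested, with a threshold of 0.05. SE is the absolute log2 fold change divided by the square root of F. RPKM are TMM-scaled CPM per 1000 bases of union exons of GENCODE vM21. The edgeR fit was tested on simulated counts with known changes. Of the further settings listed below, DESeq2, limma-voom, the replicate block, the offset and the minimum of 10 counts per library were tested likewise. The other settings and steps were not tested on simulated data. Replicates of a group were at least 20.7-fold more different than sampling noise would give (chi-square over its degrees of freedom), and each was counted as a separate library. Counts of 3 correspond to 0.0621 to 0.216 CPM, a limit that covers counting error only.

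The members and gene lists were chosen with earlier results of these data known. Named are the called members, the 2 largest changes in each of the 4 structural groups, the 5 highest and 3 lowest members per length, members that fail the filter, Mrps36, and the called genes of each pathway list. Genes overlapping these, mt-Rnr1, mt-Rnr2, Chchd1, Nrf1, Gabpa and the pseudogenes were chosen after their values were seen. Further settings covered scaling (upper-quartile, RLE, and totals that leave out either the mitochondrial genome or the 100 most abundant genes), filtering (none, or a minimum of 10 counts per library), tools (limma-voom from limma 3.58.1, and DESeq2 1.42.0), a stricter threshold of 0.01, a block for the replicate number, splines with 5 degrees of freedom in GC content and length as an offset (also together with that block), and leaving out each library. RPKM on the principal transcript and the YY1 core were added after seeing the data. Some marker results are not reported here.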

Additional observations from a re-analysis of the deposited data

How the results depend on the processing

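The 9 members higher and 2 lower became 10 to 12 higher and 1 to 3 lower under RLE scaling (1 lower), upper-quartile scaling (1 lower), the GC and length offset, no filter, a minimum of 10 counts per library and library sizes without the mitochondrial genome, and stayed at 9 and 2 with limma-voom and without the 100 most abundant genes. DESeq2 called 16 higher and 2 lower, including all 11. At an adjusted p value under 0.01, 0 were higher and 0 lower. The replicate number as a block left 4 higher (Mrpl41, Mrpl42, Mrpl4 and Mrpl24) and 0 lower, and the offset with the block left 2 higher and 1 lower. The numbers were given in accession order, and same-numbered libraries correlated at -0.04, 0.14 and 0.01 in their deviations from the group means, so these fits are not paired tests. With each library left out, 0 to 8 were higher and 0 to 1 lower, and the median ran from -0.02 to 0.27. In the other settings the median stayed between 0.09 and 0.17, while that of all genes moved from -0.03 to -0.23 without the filter. The log2 fold change of Mrps35 turned to -0.011 without the filter and ran from -0.12 to 0.13 with a library left out, and that of Mrpl34 ran from -0.11 to 0.26. Mrpl33 turned to 0.015 with RLE scaling, 0.014 with DESeq2, 0.038 with upper-quartile scaling, 0.016 without the mitochondrial genome, 0.0046 with at least 10 counts in every library, and 0.059 and 0.070 with the offset alone and with the block, and ran from -0.14 to 0.12 with a library left out. Genes called in the whole table numbered 2261, against 3720 without the filter, 3582 with DESeq2, 905 with the block, 1072 with the offset and block, and 46 to 2621 with a library left out. The cause of these changes was not tested.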

Other observations

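Chchd1, a subunit of the mitochondrial ribosome under another name, was at 18.9, 16.7 and 21.3 CPM in saline and 44.2, 26.7 and 26.5 CPM in microbead libraries. All microbead libraries were higher, and the log2 fold change of 0.78 (SE 0.24, adjusted p = 0.0605 from edgeR) did not pass. The pseudogene Mrpl48-ps had 4, 16 and 10 counts in saline and 19, 8 and 8 counts in microbead libraries, with a log2 fold change of 1.51 (SE 0.63, adjusted p = 0.135 from edgeR). Mrpl23-ps1, Mrps36-ps1 and Mrps36-ps2 had at most 9 counts in any library and were not tested.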
